A study of Mus musculus with 18 samples.

Results

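The genes described here encode the proteasome of striatal microglia. They are the protein-coding genes whose symbols begin with Psma, Psmb, Psmc, Psmd, Psme, Psmf or Psmg followed by a digit, with Psmc4 and Psmd8 left out by the same rule. They were chosen by their expression: a gene was kept if it had at least 1 CPM (counts scaled to library size) in at least 3 of the 18 samples. Of 48 such genes 46 passed, out of 17329 genes that passed the same threshold and 55536 genes in the count table. The 46 are 29 constitutive subunits (14 of the 20S core and 15 of the 19S particle), 5 immunoproteasome genes and 12 other genes. Psmc3ip, which shares part of its name with a subunit but encodes a recombination factor, lay nearest the threshold with 1 CPM or more in 16 samples and a median of 1.70 CPM. The 2 genes left out, Psmb11 and Psme2b, reached 1 CPM in 0 samples, with highest values of 0.0963 and 0.263 CPM. The rule itself uses no comparison between genotypes, but the members were chosen with earlier results of these data known.

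The proteasome degrades proteins that carry ubiquitin chains. Its barrel-shaped 20S core is made of outer alpha rings (Psma genes) and inner beta rings (Psmb genes), and the beta subunits Psmb5, Psmb6 and Psmb7 carry the proteolytic sites. The 19S particle (most Psmc and Psmd genes) binds ubiquitylated proteins at its lid and base, and the ATPases of its base unfold them and pass them into the core. In immune cells, and elsewhere after exposure to interferon gamma, the catalytic subunits Psmb8, Psmb9 and Psmb10 take the places of Psmb5, Psmb6 and Psmb7, and the PA28 activator made of Psme1 and Psme2 can cap the core. This form, the immunoproteasome, produces many of the peptides that MHC class I molecules display. Mutant huntingtin is a protein that aggregates, and its handling by the ubiquitin and proteasome system has long been studied in Huntington's disease.

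The samples were CD11b bead-enriched cells from the striatum of adult C57BL/6 mice: 5 WT, 3 Tyrobp-KO, 5 Q175 and 5 Q175;Tyrobp-KO. Q175 mice are heterozygous and carry human HTT exon 1 with an expanded CAG repeat in the endogenous Htt gene, so that its own promoter drives it in every cell type. Tyrobp-KO mice lack both copies of Tyrobp, which encodes the adaptor of TREM2 and other myeloid receptors, in all their cells, and Q175;Tyrobp-KO mice carry both changes. The beads also bind other CD11b-positive myeloid cells. Females gave 1 WT, 2 Tyrobp-KO, 4 Q175 and 2 Q175;Tyrobp-KO samples, and the labels do not state littermates or batches, so that p-values measure the spread between these samples. In bulk RNA, fewer cells of a type and less RNA per cell cannot be told apart.

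Total counts were between 11260410 and 29771983 per sample. Tyrobp had between 3628 and 8793 normalized counts in the 10 samples with the gene and between 183 and 395 in the 8 samples without it. All 15 microglial markers exceeded 100 normalized counts in every sample, with a geometric mean between 12318 and 26849. Markers of other brain cells were present too: the geometric mean of 10 astrocyte markers was between 650 and 4410, and all 10 of them and all 10 oligodendrocyte markers exceeded 100 in every sample. A score of astrocyte, neuron and oligodendrocyte markers was highest in Q175 14, Tyrobp-KO 20 and Q175;Tyrobp-KO 5, and the share of mitochondrial counts was 7.26% in Q175 14 and 6.12% in Tyrobp-KO 20 against 2.83% or less elsewhere. No sample was a copy of another: the most alike pair in a group, Q175;Tyrobp-KO 13 and 16, had a chi-square statistic of 14.1 for each degree of freedom when their counts of 19596 genes were compared.

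The genes that carry the catalytic sites and the PA28 activator lie on several chromosomes (GRCm38, GENCODE M21, whole genes). Psmb8 (chr17:34197721-34201454, plus strand) and Psmb9 (chr17:34181987-34187764, minus strand) are neighbours in the MHC region. Psme1 (chr14:55578123-55581529, plus strand) and Psme2 (chr14:55587441-55591113, minus strand) are also close to each other, and Psmb5 (chr14:54614119-54618022, minus strand) is on the same chromosome. Psmb6 is at chr11:70525367-70527858 (plus strand), Psmb7 at chr2:38588036-38644087 (minus strand) and Psmb10 at chr8:105935735-105938444 (minus strand).

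Sequence just upstream of a catalytic subunit is shown for a constitutive pair and for an immunoproteasome gene, because factors known to act on these classes have recognizable motifs. NFE2L1 and NFE2L2, transcription factors that act on proteasome genes, bind antioxidant response elements, whose core was searched as TGACNNNGC. Many genes that respond to interferon gamma hold the GAS motif, searched as TTCNNNGAA, and interferon regulatory factors bind ISRE motifs, searched as GAAA, any 2 bases and GAAA. Both strands of the 250 bases before each RefSeq start (GRCm38.p6) were searched in the 38 members with an entry. The stretches below are written 5′ to 3′ with the match in capitals. For Psmb5 (chr14:54618023-54618245, minus strand) and Psmb6 (chr11:70525107-70525356, plus strand) they exclude annotated exons. For Psmb8 (chr17:34198088-34198116, plus strand) only the match and its flanks are given, since all 250 bases lie in an exon of a longer annotated transcript.
Psmb5: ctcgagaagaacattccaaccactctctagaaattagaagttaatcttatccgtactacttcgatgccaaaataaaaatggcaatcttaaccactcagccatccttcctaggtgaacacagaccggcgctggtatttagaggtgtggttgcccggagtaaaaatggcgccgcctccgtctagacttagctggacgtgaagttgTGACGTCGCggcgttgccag
Psmb6: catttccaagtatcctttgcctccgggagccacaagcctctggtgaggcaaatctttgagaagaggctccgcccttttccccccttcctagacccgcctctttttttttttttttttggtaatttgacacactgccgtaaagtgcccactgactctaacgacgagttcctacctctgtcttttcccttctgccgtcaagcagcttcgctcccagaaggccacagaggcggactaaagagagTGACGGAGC
Psmb8: tcctccgctgTTCCCAGAAgatgcccccc
The Psmb5 match began at position -47 and the Psmb6 match at position -9, counted back from the base before the start, and the Psmb8 match began at -97. The ARE core was before a start of 5 of the 38 members (Psmb5, Psmb6, Psmc6, Psmd9 and Psmd12) and in 10.2% of all 32851 windows. Members are counted per gene and the share over all is per window, and 3 of the members have 2 starts. GAS was in 2 of 38 (Psmb8 and Psmg1) against 7.02% of all windows, and the ISRE core in 3 of 38 (Psmb3, Psmd4 and Psmd9) against 2.98%. Each match is a description of letters, and binding was not measured.

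The 14 genes of the 20S core varied together from sample to sample, and widely within WT and Q175. Their level (geometric mean of normalized counts, scaled to a common library size) was 999, 852, 1035, 512 and 515 in the WT samples 1, 2, 6, 7 and 8. It was 747, 735 and 1026 in Tyrobp-KO 15, 19 and 20, and 593, 831, 470, 833 and 860 in Q175 3, 4, 9, 14 and 17. It was 645, 615, 613, 617 and 634 in Q175;Tyrobp-KO 5, 11, 12, 13 and 16. The WT and Q175 samples therefore covered nearly the whole range of the series, while the 5 samples with both changes lay close together.

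**Figure D1:**
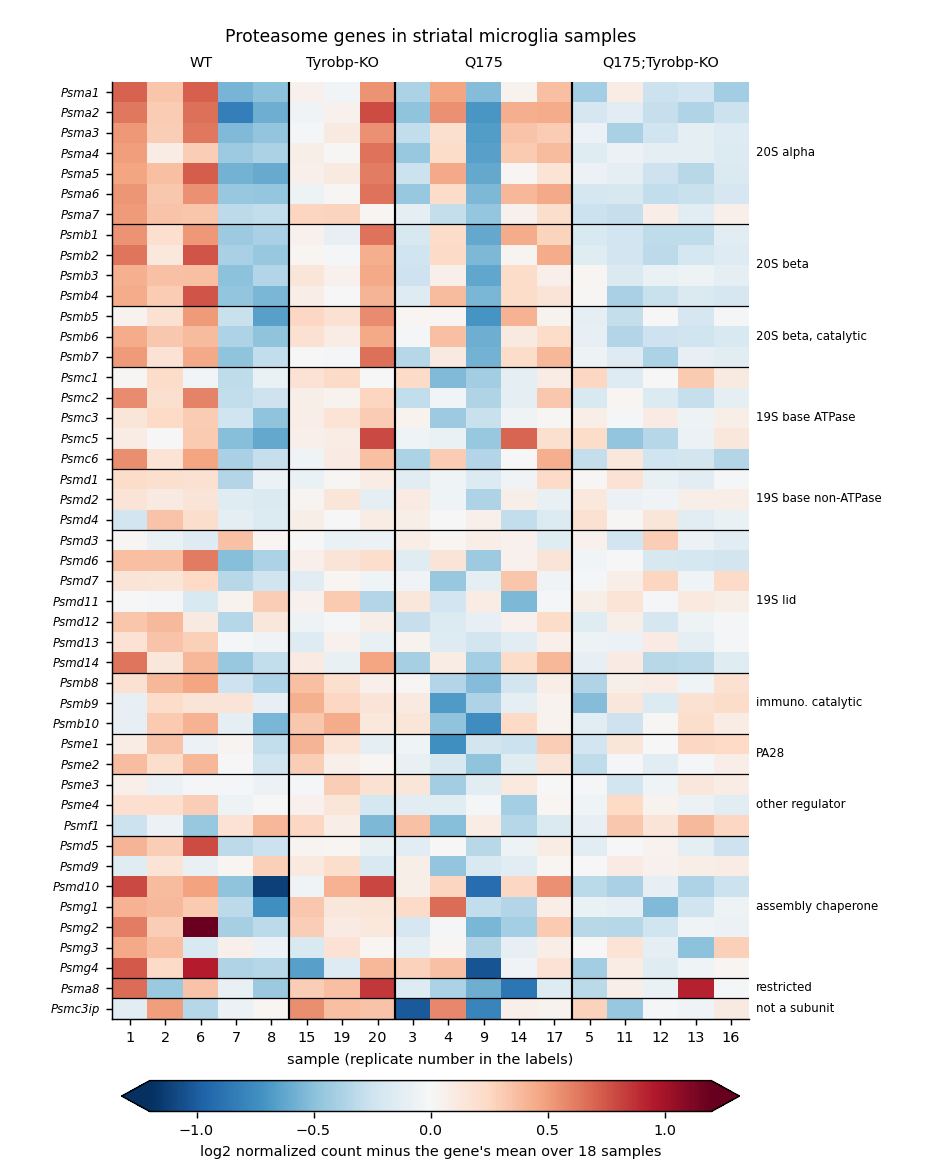
Each row is a member, ordered by its role in the proteasome, and each column is a sample; color gives the log2 normalized count minus the gene's mean over the 18 samples. The 14 rows of the 20S core change color together from sample to sample, are low in WT 7, WT 8 and Q175 9, and are pale in all 5 Q175;Tyrobp-KO columns.

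**Figure D2:**
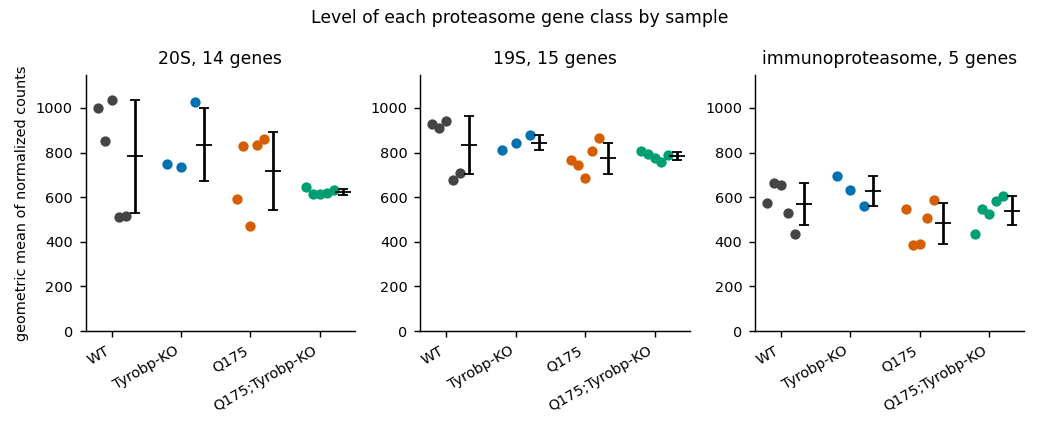
Points are samples, and the bar beside each group is its mean ± SD; the vertical axis is the geometric mean of normalized counts over the genes of a class. The 20S level runs from 470 to 1035 with the 5 Q175;Tyrobp-KO samples between 613 and 645, and the 19S and immunoproteasome classes span narrower ranges.

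The spread was measured as the SD of log2 normalized counts within a group. Its median over the 14 genes of the 20S core was 0.49 in WT, 0.30 in Tyrobp-KO, 0.41 in Q175 and 0.099 in Q175;Tyrobp-KO. Over all 17329 genes the medians in the same groups were 0.42, 0.37, 0.41 and 0.28, and 12 of 14 genes in WT and 0 of 14 in Q175;Tyrobp-KO lay above the median gene. The difference in spread between groups was not tested.

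Psma1, an alpha ring subunit, shows the pattern: it had 1767, 1355, 1769, 731 and 766 normalized counts in the WT samples. It had 1119, 1053 and 1566 in Tyrobp-KO, 826, 1495, 751, 1108 and 1384 in Q175, and 815, 1148, 903, 917 and 806 in Q175;Tyrobp-KO. All 4 groups overlapped in this gene. The ratio of the highest to the lowest of the 18 samples was between 1.96 and 3.03 in the alpha ring, with Psma2 at the top.

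Among the catalytic subunits of the standard core, Psmb5 carries the chymotrypsin-like site. Its normalized counts were 354, 391, 490, 285 and 218 in WT and 409, 391 and 511 in Tyrobp-KO. They were 349, 350, 210, 459 and 355 in Q175 and 317, 282, 344, 298 and 339 in Q175;Tyrobp-KO. All 5 Q175;Tyrobp-KO samples were below the 3 Tyrobp-KO samples and inside the WT and Q175 ranges.

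Psmb6, with the caspase-like site, had 1119, 1028, 1068, 634 and 585 normalized counts in WT and 929, 874 and 1126 in Tyrobp-KO. It had 810, 1050, 546, 881 and 955 in Q175 and 764, 644, 691, 694 and 723 in Q175;Tyrobp-KO. Its order of samples was close to that of Psmb5, again with Q175;Tyrobp-KO below Tyrobp-KO without overlap. Psmb7, with the trypsin-like site, had a mean of 899 ± 263 (SD, n = 5) in WT, 979 ± 280 (n = 3) in Tyrobp-KO, 827 ± 218 (n = 5) in Q175 and 736 ± 60.2 (n = 5) in Q175;Tyrobp-KO. The libraries do not mark the strand, and 11.8% of the exonic bases of Psmb7 are shared with Nek6, so part of its count is uncertain.

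The 19S genes moved less and not in 1 direction. Their level was between 679 and 943 in WT, 810 and 878 in Tyrobp-KO, 685 and 866 in Q175, and 759 and 808 in Q175;Tyrobp-KO. In the heat map the ATPases Psmc2 and Psmc6 and the lid genes Psmd6 and Psmd14 followed the core, while the lid genes Psmd3 and Psmd11 did not. Psmd11 had 1047, 1033, 919, 1076 and 1281 normalized counts in WT, where WT 8, with the lowest Psmb5 of that group, had the highest value. The 3 non-ATPase base genes spanned less than most, with a ratio of highest to lowest sample between 1.43 and 1.56. Psmd1, a scaffold of the base, had means of 1293 ± 205, 1258 ± 74.7, 1229 ± 137 and 1243 ± 106 in WT, Tyrobp-KO, Q175 and Q175;Tyrobp-KO.

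The immunoproteasome genes were expressed in every sample. Their level was 574, 664, 654, 529 and 436 in WT and 694, 630 and 560 in Tyrobp-KO. It was 549, 386, 391, 505 and 588 in Q175 and 436, 546, 527, 585 and 605 in Q175;Tyrobp-KO. The group means were in the order Tyrobp-KO (628 ± 67.2), WT (572 ± 94.2), Q175;Tyrobp-KO (540 ± 65.7) and Q175 (484 ± 91.8), and no neighbours in that order were separated by more than their SDs.

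Psmb8, the counterpart of Psmb5, had 693, 806, 850, 516 and 472 normalized counts in WT and 782, 697 and 639 in Tyrobp-KO. It had 617, 479, 427, 526 and 647 in Q175 and 476, 643, 649, 589 and 692 in Q175;Tyrobp-KO. The groups overlapped throughout. An antisense gene, Gm20496, shares 14.7% of its exonic bases.

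Psmb9, the counterpart of Psmb6, had 371, 462, 443, 441 and 372 normalized counts in WT and 532, 471 and 442 in Tyrobp-KO. It had 426, 248, 308, 366 and 408 in Q175 and 276, 437, 354, 451 and 462 in Q175;Tyrobp-KO. Its 3 lowest values were in Q175 4, Q175;Tyrobp-KO 5 and Q175 9, beside many higher ones in the same groups. Psmb10, the counterpart of Psmb7, had means of 446 ± 115 in WT, 537 ± 58.3 in Tyrobp-KO, 401 ± 110 in Q175 and 433 ± 54.1 in Q175;Tyrobp-KO.

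Of the PA28 genes, Psme1 had means of 808 ± 131, 885 ± 158, 706 ± 179 and 842 ± 111 in WT, Tyrobp-KO, Q175 and Q175;Tyrobp-KO. Psme2 had 617 ± 108, 602 ± 63.5, 500 ± 77.7 and 522 ± 51.2 in the same order. The other activators and the inhibitor are not part of the immunoproteasome. Psme3, the subunit of the nuclear PA28 gamma, was between 602 and 986 in all 18 samples, and Psme4, the PA200 activator, between 1656 and 2698. Psmf1, a proteasome inhibitor, was lowest in Tyrobp-KO 20, with 297 normalized counts, where the 20S level was high.

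Levels between genes were compared per length, as RPKM, counts scaled to library size and to the length of the principal transcript. The median over the 18 samples was 56.9 for Psmb6, 37.3 for Psmb7 and 21.0 for Psmb5. It was 21.3 for Psmb8, 18.7 for Psmb10 and 17.2 for Psmb9, 38.8 for Psme1 and 30.8 for Psme2. Psmb8 and Psmb5 were thus at like levels on this scale, while Psmb9 lay well below Psmb6. Psma8, a subunit known from testis, and Psmc3ip were the lowest members, at 2.14 and 1.31.

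The ratio of an immunoproteasome subunit to the standard subunit it replaces depended on the length used. On the principal transcript the ratio of Psmb8 to Psmb5 was 1.07 ± 0.0965 in WT, 0.910 ± 0.194 in Tyrobp-KO, 0.900 ± 0.200 in Q175 and 1.07 ± 0.156 in Q175;Tyrobp-KO. On all exonic bases its overall mean of 0.997 became 0.480. The ratio of Psmb9 to Psmb6 had an overall mean of 0.296 ± 0.0775, and that of Psmb10 to Psmb7 0.481 ± 0.116, or 1.09 on all exonic bases. Differences between groups do not depend on the length, and in each of the 3 ratios the 4 groups overlapped.

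The log2 ratio of the immunoproteasome level to the constitutive level had group means of -0.48 ± 0.22 in WT, -0.42 ± 0.31 in Tyrobp-KO, -0.63 ± 0.27 in Q175 and -0.39 ± 0.21 in Q175;Tyrobp-KO. The mean of Q175;Tyrobp-KO minus that of Q175 was 0.24, and the SD within groups was 0.24.

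The 20S level moved with the level of 80 ribosomal protein genes, a group of long-known co-expressed housekeeping genes. That ribosomal level was 2226, 1913, 2278, 1098 and 733 in WT and 1744, 1707 and 3063 in Tyrobp-KO, in the sample order used above. It was 1502, 1612, 742, 2900 and 2083 in Q175 and 1707, 932, 1350, 1509 and 1576 in Q175;Tyrobp-KO. The samples low in the core, WT 7, WT 8 and Q175 9, were among the 4 lowest here, and Tyrobp-KO 20, WT 6 and WT 1, the highest in the core, were among the 4 highest. Q175;Tyrobp-KO 11 had a low ribosomal level without a lower 20S level than its group. The comparisons below were also fitted with the ribosomal level as a term, chosen after the data were seen. Group means of that level were 1649 in WT, 2171 in Tyrobp-KO, 1768 in Q175 and 1415 in Q175;Tyrobp-KO. The level did not overlap between Tyrobp-KO (1707.4 to 3062.6) and Q175;Tyrobp-KO (931.7 to 1706.8). Such a fit therefore cannot separate it from the genotype there or in the interaction. In the other pairwise comparisons the level overlapped but its means differed, so such a fit separates it from the genotype only in part.

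**Figure D3:**
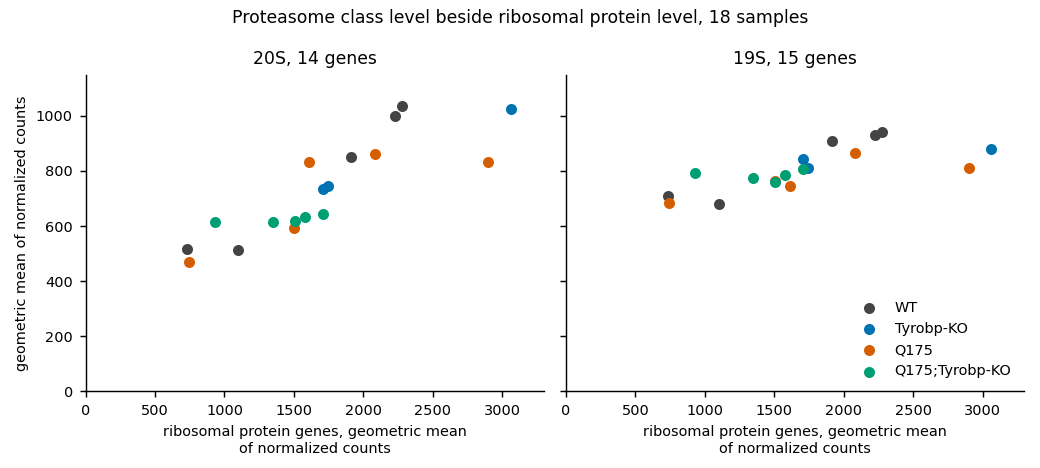
Each point is a sample, colored by genotype; the horizontal axis is the geometric mean of normalized counts of 80 ribosomal protein genes and the vertical axis that of the 20S or the 19S genes. The 20S points climb from 470 to 1035 along the axis, more steeply than the 19S points, which stay between 679 and 943.

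Whether Q175 microglia express proteasome genes at another level was asked by Q175 against WT, with edgeR's quasi-likelihood test over 18266 genes. At a false discovery rate (FDR) of 0.1, 0 members were called, as were 0% of all genes, and DESeq2 called 0 members too. At an unadjusted p under 0.05, 0 of 46 members were higher and 0 lower, against a background of 5.47% higher and 0.766% lower. The groups overlapped in all 46 members, where 0.783% of all genes were higher and 0.301% lower without overlap. The median log2 fold change was -0.12 over the members and -0.022 over all genes tested, and 40 of 46 were below 0. For the immunoproteasome genes the median was -0.22. Females gave 4 of 5 Q175 and 1 of 5 WT samples. With sex as a term the median was -0.32 for the immunoproteasome genes and -0.071 in place of -0.090 for the constitutive members. Psmb8 was lower by 0.28 (log2 fold change -0.28, 95% confidence interval -0.72 to 0.16) and Psme2 by 0.27 (-0.27, -0.66 to 0.11), with adjusted p of 0.989 and 0.960 in edgeR. Psmb9, Psmb10 and Psme1 had log2 fold changes of -0.22, -0.12 and -0.16.
These intervals span both directions. Markers of other cells moved with the genotype here: 9 of 10 astrocyte markers were higher in Q175 at an unadjusted p under 0.05, and the score of astrocyte, neuron and oligodendrocyte markers was between 0.0225 and 1.46 in Q175 and between -0.672 and -0.374 in WT, without overlap. The median log2 fold change of the constitutive members, -0.090, became -0.50 in a fit that included this score, with 0 members called. Because the score did not overlap between the groups, that fit cannot separate the score from the genotype.

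Whether Tyrobp deletion changes proteasome genes in Q175 microglia was asked by Q175;Tyrobp-KO against Q175. Of 18059 genes 0.0111% were called at FDR 0.1, and 0 of 46 members. At an unadjusted p under 0.05, 0 members were higher and 0 lower, against 3.44% and 4.56% of all genes, and in 0 members did the groups not overlap, against 0.498% higher and 0.36% lower. DESeq2 called 0 members and had 1 of 46 higher at an unadjusted p under 0.05, Psma8. The shares of all genes that DESeq2 called or had higher are not given, so these counts have no background beside them. The median log2 fold change was -0.017 over the members and -0.045 over all genes tested. The median was -0.23 for the 20S genes, 13 of 14 of them below 0, and 0.17 for the immunoproteasome genes, 5 of 5 above 0. Of these samples 4 of 5 Q175 and 2 of 5 Q175;Tyrobp-KO came from females, and with sex as a term the 20S median was -0.048, the constitutive median -0.012 in place of -0.12, and 26 of 46 members were above 0 in place of 21. Psme1 had the largest fold change of these 5 at 0.25 (95% confidence interval -0.14 to 0.64, adjusted p = 0.560, edgeR). Psmb8, Psmb9, Psmb10 and Psme2 had 0.18, 0.17, 0.11 and 0.063. With counts scaled to the total alone, the median of all genes moved to 0.085 and that of the 20S genes to -0.087. Without Q175 9, the sample with the lowest 20S level, 8 members had an unadjusted p under 0.05, all lower and 7 of them 20S genes. In that fit 7.58% of all genes were lower, against 4.56% in the main fit, and 0 members were called.

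The effect of Tyrobp deletion in mice without the Q175 allele was asked by Tyrobp-KO against WT. At FDR 0.1, 0.0222% of 18017 genes and 0 of 46 members were called. At an unadjusted p under 0.05, 0 members were higher and 0 lower, against 3.66% and 3.15% of all genes, and DESeq2 called 0 members. The groups overlapped in every member, where 1.2% of all genes were higher and 3.28% lower without overlap. The median log2 fold change was 0.10 over the members and 0.018 over all genes tested, with 37 of 46 above 0. All 14 of the 20S genes and all 5 immunoproteasome genes were above 0, with medians of 0.16 and 0.20. Psmb10 had 0.34 (95% confidence interval -0.18 to 0.86), Psmb9 0.28 (-0.12 to 0.67), Psme1 0.20, Psmb8 0.15 and Psme2 0.036. Without Tyrobp-KO 20 the median of the 20S genes was -0.061 in place of 0.16, while that of the immunoproteasome genes was 0.33. The 20S median was -0.12 with the ribosomal protein level as a term, where 19 of 46 members were above 0, -0.010 in the fit that included the score of other brain cells, and 0.33 with sex as a term. Markers of other cells also moved: the geometric mean of the border macrophage markers was between 9.65 and 15.3 in WT and between 28.0 and 33.6 in Tyrobp-KO, without overlap, and that of the monocyte or neutrophil markers between 5.70 and 237 in WT and between 95.5 and 207 in Tyrobp-KO. Their part in these values was not tested.

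The effect of the Q175 allele in mice that lack Tyrobp was asked by Q175;Tyrobp-KO against Tyrobp-KO, and here the core genes lay apart most. No member was called at FDR 0.1 by edgeR, as in 0% of 17723 genes, and the smallest adjusted p among the members was 0.291. At an unadjusted p under 0.05, 21 of 46 members were lower and 0 higher, against a background of 8.24% lower and 4.98% higher. The groups did not overlap in 17 members, all lower, against 5.92% of all genes, and in 0 members that were higher, against 4.05%. The median log2 fold change was -0.31 over the members and -0.012 over all genes tested.

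By role, the 21 genes were all 14 of the 20S core, 3 of 15 in the 19S particle (Psmc2, Psmc6 and Psmd6), 1 of 5 in the immunoproteasome (Psmb10) and 3 of 7 assembly chaperones (Psmd10, Psmg1 and Psmg2). Psmb6 had a log2 fold change of -0.49 (SE 0.122, 95% confidence interval -0.77 to -0.22) and Psmb5 -0.49 (SE 0.139, -0.80 to -0.17), each with an adjusted p of 0.291 in edgeR. Psmd10, known as gankyrin, a chaperone that helps assemble the 19S base, had -0.73 (SE 0.222, -1.24 to -0.23), from 89.05, 122 and 159 normalized counts in Tyrobp-KO to 73.1, 69.6, 85.2, 70.7 and 76.3 in Q175;Tyrobp-KO. Psma2 had -0.58, the largest difference in the alpha ring, and Psma5, Psma3, Psma6 and Psmb1 -0.48, -0.44, -0.49 and -0.49. Psmg1 and Psmg2, which form a chaperone pair for the alpha ring, had -0.42 and -0.40. Psmb10 had -0.34, Psmb9 -0.31, Psmb8 -0.23, Psme2 -0.23 and Psme1 -0.098. The other members had values on both sides of 0, up to 0.22 for Psmf1.

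The members in which the groups did not overlap were Psma2, Psma3, Psma4, Psma5, Psma6, Psmb1, Psmb2, Psmb3, Psmb5, Psmb6, Psmb7, Psmc2, Psmd6, Psmd10, Psmg1, Psmg2 and Psmc3ip. Of the other 20S genes, Psma1 had -0.46, Psmb4 -0.39 and Psma7 -0.31.

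**Figure D4:**
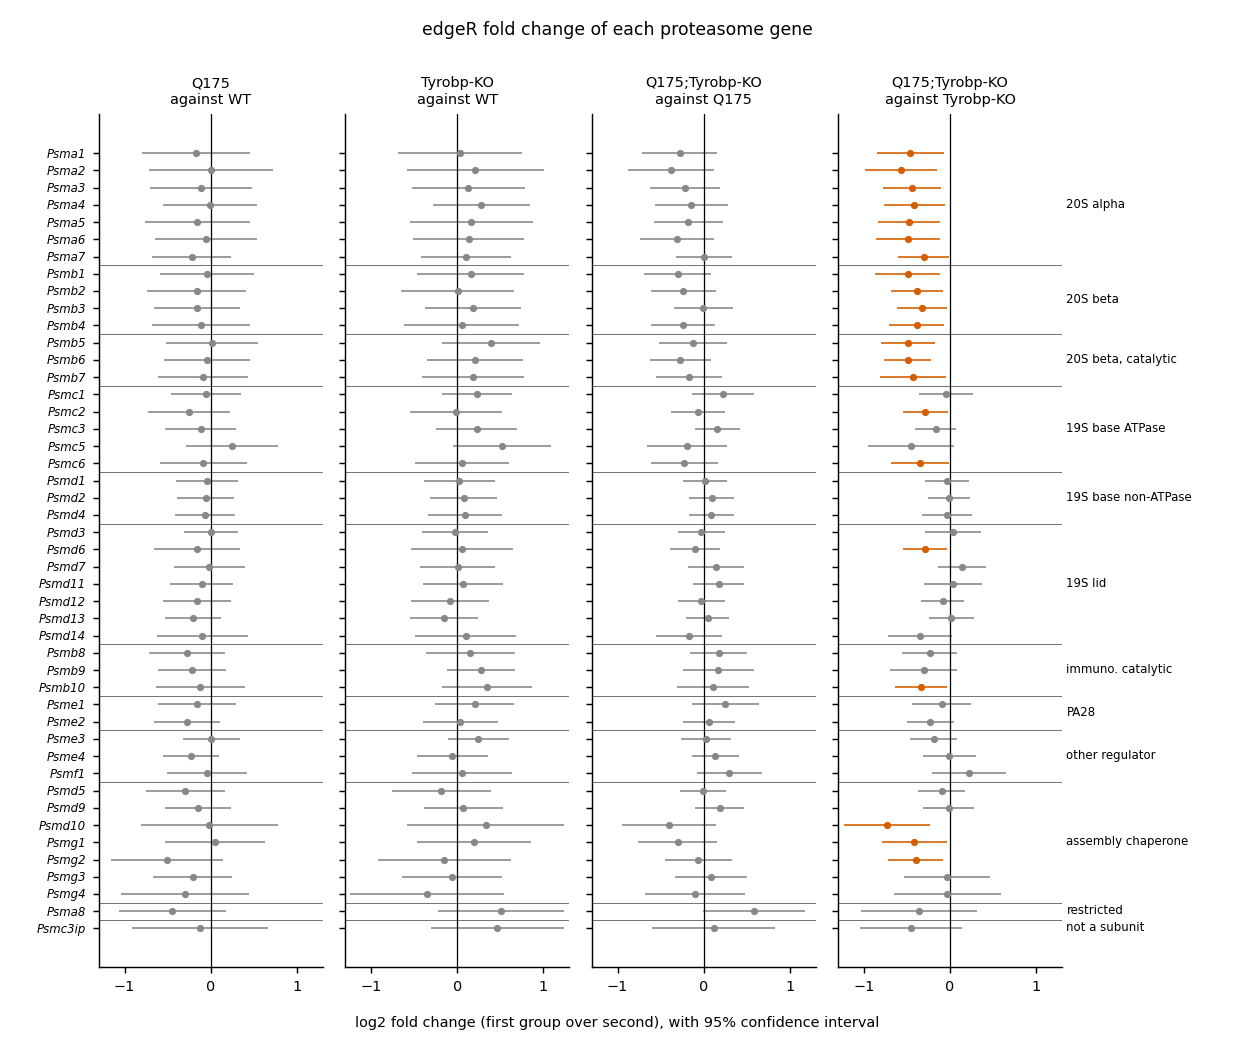
Points are edgeR log2 fold changes of the 46 members in each comparison and lines their 95% confidence intervals; orange marks an unadjusted p under 0.05. Orange points appear in Q175;Tyrobp-KO against Tyrobp-KO alone, where 21 members, among them all 14 genes of the 20S core, lie left of 0; none of them passed FDR 0.1.

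These 21 genes rest on 3 Tyrobp-KO samples and on the fit. Without Tyrobp-KO 20, the sample with a high ribosomal protein level, mitochondrial share and non-microglial score, 8 of 46 members were lower at an unadjusted p under 0.05, 4 of them 20S genes, against 7.15% of all genes in that fit. Without Q175;Tyrobp-KO 13 or 16 there were 13 and 11, against 5.54% and 5.01%. With sex as a term there were 15, 10 of them 20S genes, against 6.92%. With the ribosomal protein level as a term 3 members were lower (Psmb6, Psmb8 and Psmb9), against 7.65% of all genes. Of these only Psmb6 was among the 21. In 1 fit over all 4 groups there were 2 (Psmb5 and Psmb6), against 3.24%. Both shares were near those over all genes. In a fit that included the score of other brain cells there were 22, against 11.3%, and without the 3 samples of the highest score 16, against 9.20%. DESeq2 called 3 members at FDR 0.1, Psmb5, Psmb6 and Psmd10, with a smallest adjusted p of 0.0243. The share of all genes that it called is not given here, so these 3 calls have no background beside them. At an unadjusted p under 0.05 DESeq2 had 20 members lower, against 8.52% of all genes. Psmb6 kept an unadjusted p under 0.05 in all 18 alternatives of this comparison and Psmb5 in 17. Microglial markers moved in the same direction, with 6 of 15 lower at an unadjusted p under 0.05, and the summed level of the 10 astrocyte markers was between 14623 and 87304 in Tyrobp-KO and between 14720 and 70137 in Q175;Tyrobp-KO. Of other myeloid cells, 5 of 7 monocyte or neutrophil markers and 3 of 4 border macrophage markers were lower at an unadjusted p under 0.05; the geometric mean of the border macrophage markers was between 28.0 and 33.6 in Tyrobp-KO and between 8.01 and 23.0 in Q175;Tyrobp-KO. The part of these cells in the result was not tested.

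The comparisons share groups, so their values are not independent. The difference between the Q175 effect with and without Tyrobp was tested as the interaction of both changes over all 18 samples. It called 0% of 18613 genes and 0 members at FDR 0.1, and 0 members had an unadjusted p under 0.05, against 6.01% of all genes in either direction. The median was -0.28 over the 20S genes, with 14 of 14 below 0, 0.10 over the immunoproteasome genes and 0.038 over all genes tested. The smallest adjusted p among the members was 0.716. DESeq2 called 0 members as well. The 20S median turned to 0.069 with the ribosomal protein level as a term, where 37 of 46 members were above 0 in place of 21. It was -0.088 in the fit that included the score of other brain cells and -0.11 without the 3 samples of the highest score.

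Co-variation over the 18 samples was examined for Psmb8 with 10 single genes, with p from 100000 permutations and Benjamini-Hochberg adjustment over the 10, of which 9 are given. Psmb8 varied with each of the other immunoproteasome genes. Pearson's r was 0.892 with Psme2 (rho 0.889, adjusted permutation p 0.0001 for both, from the smallest p the permutations can give), 0.786 with Psmb10 (rho 0.738, adjusted permutation p 0.0004 and 0.00345), 0.728 with Psmb9 (rho 0.672, 0.00153 and 0.0075) and 0.696 with Psme1 (rho 0.680, 0.00305 and 0.0075). Without Q175 9 and WT 8, the samples farthest from the median of Psmb8, these r were 0.845, 0.661, 0.709 and 0.661. After subtracting group means they were 0.892, 0.752, 0.626 and 0.639, and within each sex none was under 0.637.

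**Figure D5:**
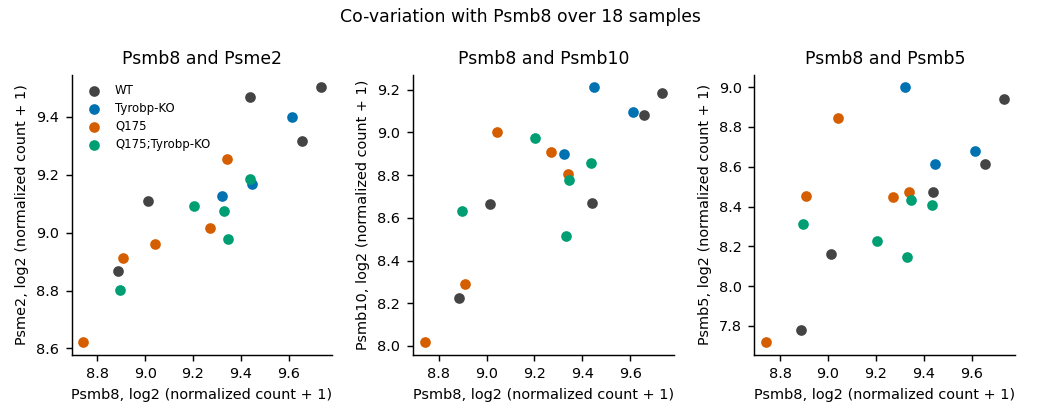
Each point is a sample, colored by genotype, on log2 axes of normalized counts plus 1. Psme2 follows Psmb8 closely (r = 0.892), Psmb10 less so (0.786) and Psmb5 with more scatter (0.648).

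With the standard catalytic subunits r was lower in value over all 18 samples and changed more without the same 2 samples, and no difference between r was tested. For Psmb5 r was 0.648 (rho 0.631, adjusted permutation p 0.00648 and 0.0124), but 0.425 without those 2 samples, 0.662 after subtracting group means, 0.962 in the 9 males and 0.348 in the 9 females. For Psmb6 r was 0.564 (rho 0.540, adjusted permutation p 0.0250 and 0.0361), with 0.348 without them, 0.604 after subtracting group means, 0.872 in males and 0.176 in females. Psmb7 had 0.487 (rho 0.476, adjusted permutation p 0.0589 and 0.0678), with 0.311 without them, 0.457 after subtracting group means, 0.795 in males and 0.164 in females. Tap1 and Nlrc5 did not pass: r was 0.119 with Tap1, which encodes the transporter that carries peptides into the endoplasmic reticulum, and -0.0595 with Nlrc5, an activator of MHC class I genes (rho 0.0712 and -0.168; adjusted permutation p of r 0.706 and 0.815, and of rho 0.780 and 0.558). In females these r were 0.719 and 0.591 and in males -0.318 and -0.497. They were 0.145 and -0.0313 without the 2 samples, and 0.434 and 0.190 with counts scaled to the total alone (adjusted permutation p 0.0807 and 0.444). Tap1 shares 5.79% of the exonic bases of Psmb9 on the other strand.

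Of 9 tested proteasome components and assembly factors with other names, 0 were called in any pairwise comparison, and 3 of 9 were lower at an unadjusted p under 0.05 in Q175;Tyrobp-KO against Tyrobp-KO, where 8.24% of all genes were: Pomp, the maturation factor of the core (-0.53), Txnl1, a thioredoxin of the 19S particle (-0.30), and Usp14, a deubiquitinase of the 19S base (-0.29). Pomp had 1224, 1124 and 1830 normalized counts in Tyrobp-KO and 847, 1025, 944, 1030 and 1047 in Q175;Tyrobp-KO, without overlap. Of 6 genes of proteasome gene transcription, 0 were called in any of the 4 pairwise comparisons. In Q175;Tyrobp-KO against Tyrobp-KO Ddi2, the protease that activates NFE2L1, was higher (0.47) at an unadjusted p under 0.05, against 4.98% of all genes. Ngly1, which removes the sugars of NFE2L1, was lower there at that threshold (-0.30), against 8.24% of all genes. Nfe2l1 itself had 604, 778, 617, 1524 and 1408 normalized counts in WT. The 2 highest values were in WT 7 and WT 8, the WT samples with the lowest 20S levels. Nfe2l1 was between 967 and 1161 in Tyrobp-KO, 702 and 1634 in Q175, and 1129 and 1670 in Q175;Tyrobp-KO. Whether it varied with the 20S level over the samples was not tested.

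Of 14 genes of ubiquitin supply and delivery, 0 were called. At an unadjusted p under 0.05 in Q175;Tyrobp-KO against Tyrobp-KO, Rps27a, a fusion of ubiquitin and a ribosomal protein, was lower (-0.77), against 8.24% of all genes. Nploc4, a cofactor of the unfoldase VCP, was higher there at that threshold (0.35), against 4.98% of all genes. Of 10 genes of the antigen peptide pathway 0 were called and 3 were lower there, against the same 8.24% of all genes: B2m, the light chain of MHC class I (-0.81), H2-K1, a heavy chain (-0.70), and Erap1, which trims peptides (-0.46). B2m also had -0.53 in Q175;Tyrobp-KO against Q175. Of 13 interferon regulators 0 were called. In Q175;Tyrobp-KO against Q175, 3.44% of all genes were higher at an unadjusted p under 0.05. Jak1 (0.48), a kinase of interferon receptors, and Ifngr1 (0.40), a chain of the interferon gamma receptor, were among the regulators higher there. The medians of the list were 0.35 in that comparison and between -0.19 and 0.15 in the other pairwise ones. None of the genes named passed FDR 0.1 in a pairwise comparison.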

How the data were processed

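RNA of striatal cells enriched with CD11b beads was sequenced in 18 labelled samples; 2 columns without a label were not used. The authors deposited counts, whole numbers of reads per Ensembl gene without normalization, made from SMART-Seq v4 non-directional libraries with STAR and featureCounts. The methods name GRCm38 and a UCSC gene model, while the submitters' processing notes name GRCh38; all identifiers are mouse Ensembl genes, and symbols, exons and lengths were taken from GENCODE M21 (GRCm38). Per the labels a sample came from 2 striata, per the methods from 1.

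Counts were scaled with TMM (edgeR 4.0.16, R 4.3.3). For each comparison, edgeR's quasi-likelihood test was run on genes reaching 1 CPM in 1 or more of its samples, at a Benjamini-Hochberg FDR of 0.1, on the samples of its 2 groups or, for the interaction, of all 4. Total counts are numbers of reads, and amplified reads without molecular identifiers are not independent molecules. Alternatives were DESeq2 1.42.0 (Wald test), its size factors, total counts, filterByExpr, no filter, FDR 0.05, 1 fit over all groups, sex or a non-microglial score as a term, and leaving out each sample. The ribosomal protein term, the length of the principal transcript and leaving out the 3 samples of the highest score were chosen after seeing the data, as were the promoter motifs. The members and all gene lists were chosen with earlier results of these data known. Named genes are the immunoproteasome genes and their counterparts, members with the smallest unadjusted p under 0.05 or without overlap, those nearest the expression threshold and the pathway genes with the smallest p; other 20S and 19S genes, Psmf1 and Nfe2l1 were chosen after seeing their values. The scripts were checked on simulated data with known changes. Replicate numbers are not shared between groups, so no samples were paired. The result of 1 gene is not reported here.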

Additional observations from a re-analysis of the deposited data

Results flagged for a closer look

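Dixon's criterion for a sample far from the others was applied to the 46 members in the 3 groups of 5 samples, 138 tests in all, of which 4 were met; chance alone meets it in about 1 in 20 groups. Psmd1, a base subunit, had 1464 normalized counts in Q175 17, the highest of its group, and 1212 in the next sample. Psmd3, a lid subunit, had 985 in the same sample, the lowest of its group, and 1106 in the next. Psmc6, a base ATPase, had 1234 in Q175;Tyrobp-KO 11, against 963 in the next. Psma8, the testis-known alpha subunit, had 135 in Q175;Tyrobp-KO 13, against 75.2 in the next.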

How the results depend on the processing

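No paired analysis was possible because the groups share no replicate numbers. Each value of a comparison was recomputed under other settings and without each sample in turn. In Q175 against WT, members with an unadjusted p under 0.05 were 0 in the main fit. They were 2 in 1 fit over all 4 groups (Psme2 and Psmg2), 1 with the ribosomal protein level as a term, and 0 to 2 leaving out 1 sample. These members were lower, against 2.44%, 1.41% and 0.402% to 2.06% of all genes in the same order. The median of the constitutive members was -0.50 in the fit that included the score of other brain cells, which cannot separate the score from the genotype. In Q175;Tyrobp-KO against Q175 members with an unadjusted p under 0.05 were 1 with DESeq2, with its size factors, with total counts and in 1 fit over all 4 groups. They were 0 to 8 leaving out 1 sample, and the 8 were lower without Q175 9, where 7.58% of all genes were. For members that were higher, the shares of all genes in these fits are not given. In Tyrobp-KO against WT members at that p were 0 to 2 leaving out 1 sample, higher where present, with no share of all genes given. In Q175;Tyrobp-KO against Tyrobp-KO members called were 3 with DESeq2, whose share of called genes over all genes is not given. Members at an unadjusted p under 0.05, all lower, went from 21 to 15 with sex as a term and 7 with total counts. They were 13 without a filter and 2 in 1 fit over all 4 groups. The share of all genes that were lower went from 8.24% to 6.92%, 3.22%, 4.03% and 3.24% in the same order. Members at that p were 3 with the ribosomal protein level, only Psmb6 of them among the 21, against 7.65% of all genes. They were 8 to 17 leaving out 1 sample, against 5.01% to 8.46% of all genes. For the interaction, members at that p were 1 without a filter, 1 with the ribosomal protein level and 0 to 1 leaving out 1 sample. Without a filter 4.20% of all genes were lower in the interaction, as was that member. The ribosomal protein level also moved the constitutive median from -0.17 to 0.089 and the 20S median from -0.28 to 0.069. With total counts the median of all genes moved from 0.038 to 0.15 in the interaction and from -0.045 to 0.085 in Q175;Tyrobp-KO against Q175, where 31 in place of 21 members were above 0; in Q175;Tyrobp-KO against Tyrobp-KO 14 in place of 5 were.

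The fold change of Psme2 in Tyrobp-KO against WT turned to -0.037 in 1 fit over all 4 groups, to -0.054 with the ribosomal protein level and to between -0.070 and 0.093 leaving out 1 sample. In Q175;Tyrobp-KO against Q175, leaving out Q175 9 turned Psmb10 to -0.019 and Psme2 to -0.014, and leaving out 1 sample gave up to 0.21 and 0.15. In Q175;Tyrobp-KO against Tyrobp-KO, leaving out Tyrobp-KO 15 turned Psme1 to 0.060, and the lowest value leaving out 1 sample was -0.22. With total counts the r of Psmb8 with Nlrc5 turned to 0.190 and that with Tap1 moved from 0.119 to 0.434. The causes were not tested. With 3 to 5 samples per group the 95% confidence intervals of the members had median half-widths of 0.32 to 0.56 over the 4 pairwise comparisons on the log2 scale.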
